A study of Mus musculus with 18 samples.

Results

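The mouse mitochondrial genome encodes 22 tRNAs, and 8 of them are read from the light-strand promoter: mt-Tp, mt-Te, mt-Ts1, mt-Ty, mt-Tc, mt-Tn, mt-Ta and mt-Tq. They were listed by that strand and not by a measured value, although earlier results of these data were known. They are 8 of the 3574 entries of the Hydro-tRNA-seq table. Hydro-tRNA-seq sequences fragments of gel-purified RNA of 60 to 100 nucleotides after alkaline hydrolysis, so a read covers a piece of a tRNA. The study asked how the stress-responsive protein RTP801 (also called REDD1, encoded by Ddit4) relates to tRNA processing in the hippocampus of 5xFAD mice, a transgenic model of Alzheimer's disease. All mice were males, wild type (WT) on a B6SJL background or 5xFAD, and every one received a virus in CA1 and the dentate gyrus of both hippocampi at 6 months of age, with tissue taken 4 weeks later. The control virus was rAAV2/8-H1-shControl-RSV-GFP (shCT) and the silencing virus rAAV2/8-H1-shRTP801-RSV-GFP (shRTP801). Each mouse gave 1 library, and there were 5 WT mice with shCT (WT shCT), 4 WT mice with shRTP801 (WT shRTP801), 3 5xFAD mice with shCT (5xFAD shCT) and 6 5xFAD mice with shRTP801 (5xFAD shRTP801). The virus was directed at neurons, the hairpin was driven by the H1 promoter, and both whole hippocampi were dissected, so RNA of cells that the virus did not reach is included. In such bulk tissue, fewer cells of a type and less RNA per cell cannot be told apart.

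Mitochondria keep their own set of tRNAs for making the few proteins that their genome encodes. Each strand of that genome is copied as a long transcript, the tRNAs are cut out of it by RNase P and ELAC2, and the 3′ CCA end is then added. The heavy-strand transcript holds the rRNAs, most of the mRNAs and the other 14 tRNAs, whereas the light-strand transcript holds ND6 and the 8 tRNAs studied here. From the light-strand promoter, the order of the 8 genes is mt-Tp (proline), mt-Te (glutamate, next to ND6), mt-Ts1 (serine, UCN codons), mt-Ty (tyrosine), mt-Tc (cysteine), mt-Tn (asparagine), mt-Ta (alanine) and mt-Tq (glutamine). The genes mt-Ty, mt-Tc, mt-Tn and mt-Ta lie next to each other between COX1 and mt-Tw, with the origin of light-strand replication between mt-Tc and mt-Tn, and are called the block below. Each of the 8 is the sole mitochondrial tRNA for its codons, so all 8 are needed for mitochondrial translation.

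The number of mt-tRNA reads differed far more between mice than between groups. The mt-tRNA reads of a library ran from 1556419 to 13720344 in 15 of the 18 mice. The library of mouse 4 (WT shRTP801) held 79078, that of mouse 7 (5xFAD shRTP801) 6013 and that of mouse 5 (WT shCT) 624. Over all entries of the table these libraries held 18527898, 18965559 and 19852409 reads in that order. Mouse 8 held 22736718, and the median over the 18 was 34320346. Below, deep and shallow refer to mt-tRNA reads alone. Of mt-tRNA plus mature cytosolic tRNA reads, mt-tRNAs took between 0.00319% and 51.5%. All 8 light-strand tRNAs had at least 1 read in every library, compared with 11 of the 14 heavy-strand tRNAs. In mouse 5, however, the 8 rested on 73 reads, with 2 for mt-Ta and 3 each for mt-Tq and mt-Ty. Of a list of 27 brain-enriched entries, which summed to between 479 and 14157 normalised reads in a library, tRNA-Arg-TCT-4 was present in all 18, whereas Mir124 was at 0 in 1 library, Snord116 in 3, Mir138 in 4, Mir128 in 7 and Mir9 in 14. Without the tRNA, the list was at 0 in 1 library. The only entry of the list for other tissues, Mir126a, an endothelial microRNA gene, had a median of 1.30 normalised reads, above those of Mir9 (0) and Mir128 (0.799), so the microRNA genes do not set the tissue apart here. The Ddit4 mRNA is not a tRNA-sized RNA and its silencing was not checked here.

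The 8 light-strand tRNAs made up 36.4% of the mt-tRNA genes and 10.6% ± 2.88 (SD, n = 18) of the mt-tRNA reads. Their share ran from 5.68% in mouse 4 (95% Wilson interval 5.52% to 5.84%) to 16.8% in mouse 8 (16.7% to 16.9%). In mouse 5, with its 624 mt-tRNA reads, the share was 11.7% with an interval of 9.41% to 14.5%. These intervals cover counting error only, since PCR copies of a molecule were not told apart, and in the deeper libraries they are far narrower than the spread between mice. The heavy-strand mt-Th, the histidine tRNA, was the most abundant of the 22 and alone held 30.9% to 69.8% of the mt-tRNA reads, with a median of 54.6%. Abundance here and below means reads. How evenly the method captures different tRNAs was not tested, so an order of reads need not be an order of RNA amounts.

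Within the light strand, reads per length did not follow the distance from the promoter. With reads divided by gene length and set as a share of all 22 genes, the medians over the 18 mice in order from the promoter were 0.348% for mt-Tp, 4.22% for mt-Te, 0.0557% for mt-Ts1, 0.872% for mt-Ty, 1.73% for mt-Tc, 0.743% for mt-Tn, 0.0488% for mt-Ta and 0.167% for mt-Tq. mt-Te was the highest, at rank 3 among the 22, and mt-Ts1 and mt-Ta were the lowest, at ranks 21 and 22. The neighbours in that order were not all separated in single mice. mt-Te lay above mt-Tc in 13 of 18 mice, mt-Tc above mt-Ty in 18, mt-Ty above mt-Tn in 12, mt-Tn above mt-Tp in 15, mt-Tp above mt-Tq in 18, mt-Tq above mt-Ts1 in 13 and mt-Ts1 above mt-Ta in 11. Hence the places of mt-Ts1 against mt-Ta and of mt-Ty against mt-Tn varied between mice. The least abundant heavy-strand tRNA, mt-Tr, which carries arginine, was at rank 20, above both of the lowest light-strand tRNAs.

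Genes that lie side by side had unequal numbers of reads. Per length, mt-Tn exceeded its neighbour mt-Ta in all 18 mice, by 1.36-fold in mouse 7 to 121-fold in mouse 8, with a median of 13.96-fold. mt-Tc exceeded mt-Tn in all 18 mice, with a median of 2.14-fold, and mt-Ty in all 18, with a median of 1.79-fold. The wide ends of these ranges partly rest on few reads. In the 16 libraries of at least 10000 mt-tRNA reads, the mt-Tn to mt-Ta ratio started at 5.90, while the mt-Tc to mt-Tn ratio ended at 4.58 instead of 59.0 and the mt-Tc to mt-Ty ratio at 2.66 instead of 15.6. The ends at 4.58 and 2.66 were those of mouse 4, which had the fewest mt-tRNA reads of the 16. mt-Te exceeded mt-Tp, the member nearest to the promoter, in 17 of 18 mice with a median of 14.8-fold, and mouse 5, with 12 mt-Te and 16 mt-Tp reads, was the exception at 0.728. mt-Tp exceeded mt-Tq, the member farthest from the promoter, in all 18 mice with a median of 2.32-fold.

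**Figure D1:**
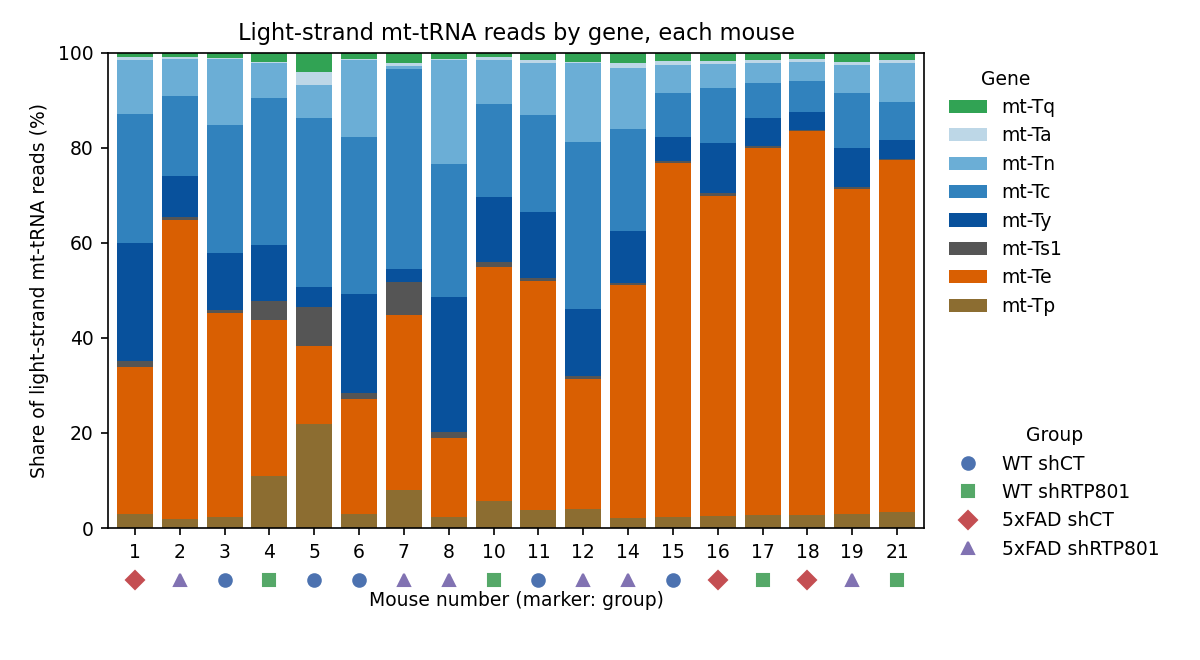
Share of each of the 8 genes in the light-strand mt-tRNA reads of a mouse (%, stacked bars, genes from the promoter upwards), with mice in order of their number and a marker for the group. mt-Te takes 67.4% to 80.8% in mice 15 to 21 and 16.4% to 63.1% in the other 12 mice, across all 4 groups.

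The make-up of the light-strand reads varied severalfold between mice. mt-Te was the largest of the 8 in 13 mice, mt-Tc in 4 and mt-Ty in 1. mt-Te and the block together held a median of 94.7% of the light-strand reads, so that where the share of mt-Te was low, that of the block was high by construction. In WT shCT mice, mt-Te made up 42.9% of the light-strand reads in mouse 3, 16.4% in mouse 5, 24.3% in mouse 6, 48.1% in mouse 11 and 74.5% in mouse 15. In WT shRTP801 mice, it was 33.0% in mouse 4, 49.2% in mouse 10, 77.2% in mouse 17 and 73.9% in mouse 21. In these WT groups the mice with the higher numbers were the high ones, and the groups overlapped. In 5xFAD shCT mice, mt-Te stood at 30.9% in mouse 1, 67.4% in mouse 16 and 80.8% in mouse 18. In 5xFAD shRTP801 mice, the lowest share was 16.7% (mouse 8), the median 42.9% and the highest 68.5% (mouse 19). Every group thus reached from 33.0% or less to 68.5% or more.

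The 6 mice with the lowest block shares, 14.9% to 27.7%, were those with the 6 highest numbers, 15 to 21. Of these, 1 was WT shCT, 2 were WT shRTP801, 2 were 5xFAD shCT and 1 was 5xFAD shRTP801, and mt-tRNAs took 34.7% to 51.5% of their mt-tRNA plus mature tRNA reads. In the other 12 mice the block made up 33.8% to 78.4%, and mt-tRNAs 0.00319% to 42.5%. The labels do not say what the number of a mouse stands for. Over the 18 mice, the block share fell with the mouse number (Pearson's r = -0.677, permutation p = 0.00244, adjusted p = 0.00366; Spearman's rho = -0.690, p = 0.00197, adjusted p = 0.00339), and without the 2 mice farthest from the median number r was -0.602. Within the 9 lower numbers (1 to 10) this relation was not seen, with r = 0.136, whereas within the 9 upper numbers (11 to 21) r was -0.773. The 4 genes of the block did not all fall. The median shares of light-strand reads of mt-Tc, mt-Tn and mt-Ty were lower in the upper numbers than in the lower ones. That of mt-Ta was higher, at 0.643% against 0.415%, and is too small to weigh in the block share. The share of mt-Te rose with the number (r = 0.710, permutation p = 0.00167, adjusted p = 0.00334; rho = 0.690, p = 0.00226, adjusted p = 0.00339), with r = 0.665 without the 2 farthest mice, -0.201 in the lower and 0.768 in the upper numbers.

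The make-up moved with the share of mt-tRNAs in a library as well. The mt-Te share of light-strand reads rose with it (r = 0.851, permutation p = 3e-05, adjusted p = 0.00018; rho = 0.849, p = 1e-05, the smallest that the resamples can give, adjusted p = 6e-05), with r = 0.843 without the 2 farthest mice, 0.624 within the lower and 0.938 within the upper numbers. The block share fell with it (r = -0.724, permutation p = 0.00095, adjusted p = 0.00285; rho = -0.738, p = 0.00075, adjusted p = 0.00225), with r = -0.800 without the 2 farthest mice. For the block, r was -0.190 within the lower numbers and -0.935 within the upper ones. The total light-strand share showed no such relation, with r = 0.123 against the mouse number (permutation p = 0.625, adjusted p = 0.625; rho = 0.218, p = 0.384, adjusted p = 0.461) and r = -0.243 against the mt-tRNA share (permutation p = 0.330, adjusted p = 0.396; rho = -0.174, p = 0.486, adjusted p = 0.486). Without the 2 farthest mice these were 0.0188 and -0.0645. Against the number, r was 0.440 within the lower and 0.477 within the upper numbers, and against the mt-tRNA share -0.408 and 0.0584. These are 6 relations over the same mice, and p-values were adjusted over the 6. Group differences within the lower and upper numbers, and with the mt-tRNA share in the fit, are given below beside the results.

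**Figure D2:**
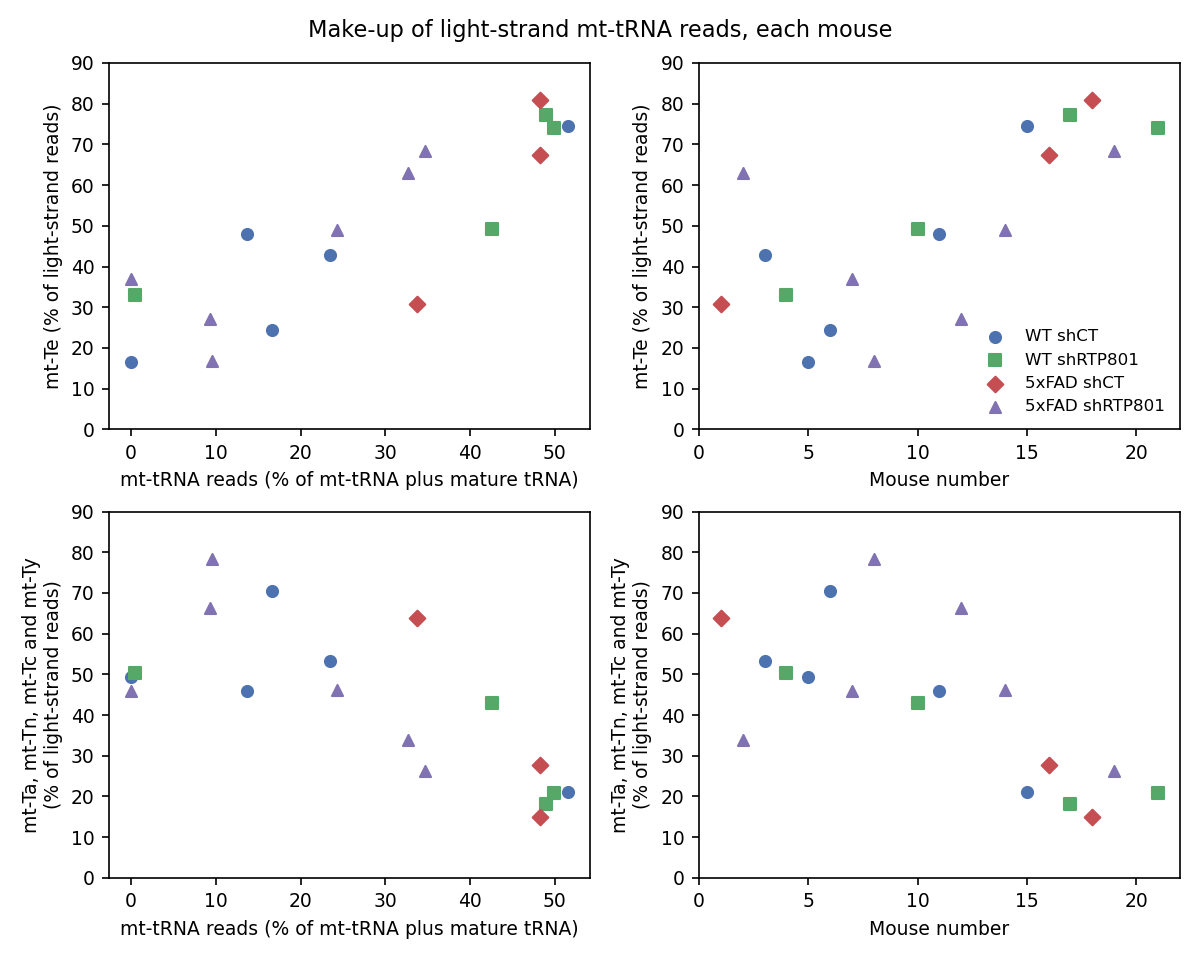
Share of mt-Te (upper panels) and of the block of mt-Ta, mt-Tn, mt-Tc and mt-Ty (lower panels) in the light-strand reads of each mouse (%), against the share of mt-tRNAs in mt-tRNA plus mature tRNA reads (%, left) and the mouse number (right), with 1 point per mouse coloured by group. The mice with the highest mt-tRNA shares lie at the top for mt-Te (r = 0.851) and at the bottom for the block (r = -0.724).

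On the scale of the deposited normalised reads, the members did not move in step across the mouse numbers. mt-Te had a median of 90066 normalised reads in the lower 9 numbers and of 480170 in the upper 9. mt-Tq went from 3934 to 12953, mt-Ta, although a gene of the block, from 905 to 4360 and mt-Tp from 9584 to 19474. The medians of the block members mt-Tc (93238 and 78114), mt-Tn (49203 and 44825) and mt-Ty (47739 and 45521) were lower in the upper numbers, by less. In the 7 lower-numbered mice with at least 10000 mt-tRNA reads, the medians were 145918 for mt-Te, 4527 for mt-Tq, 1598 for mt-Ta, 10030 for mt-Tp, 104859 for mt-Tc, 52266 for mt-Tn and 67383 for mt-Ty. Among these deeper libraries the 3 block members, mt-Ty most, were thus further above their medians in the upper numbers. The lower and upper numbers overlapped in every member, and this split was chosen after the values were seen, so no test is given.

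**Figure D3:**
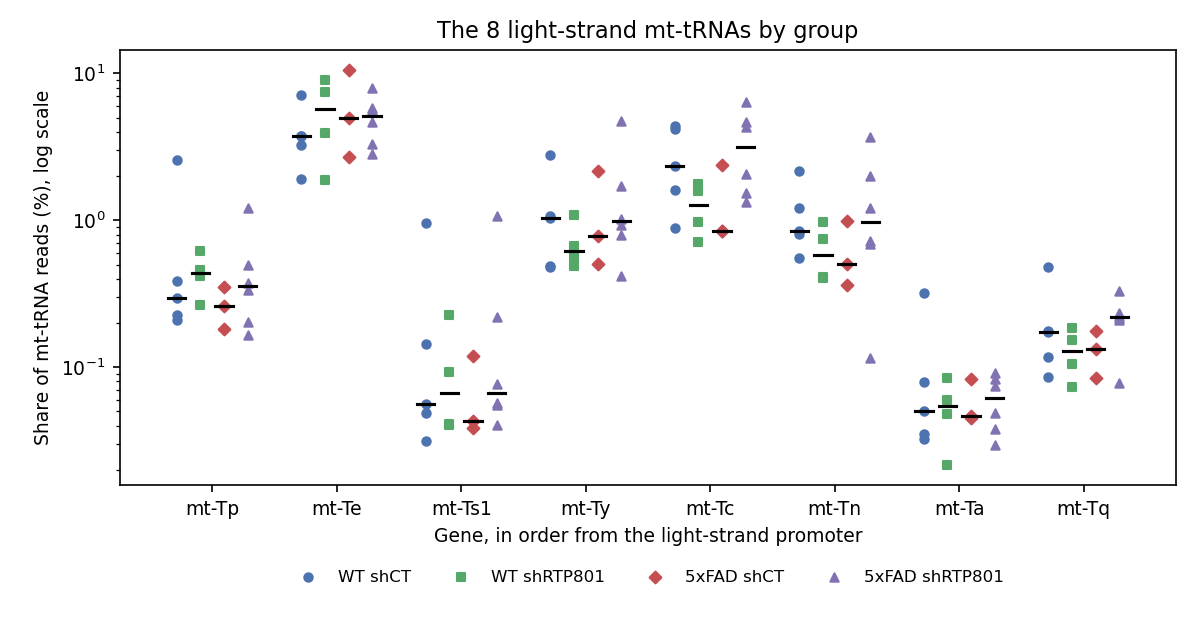
Share of mt-tRNA reads (%, log scale) of the 8 light-strand tRNAs in order from the light-strand promoter, with 1 point per mouse by group and a black line at the median of the group. The 4 groups overlap for every gene, and the highest mt-Tp, mt-Ta and mt-Tq values belong to mouse 5 (WT shCT).

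As a share of all mt-tRNA reads, single members ranged widely. mt-Te, the glutamate tRNA, ran from 1.87% to 10.5% (median 4.30%), mt-Tc, for cysteine, from 0.708% to 6.39% (median 1.68%), and mt-Ty, for tyrosine, from 0.416% to 4.75% (median 0.862%). mt-Tn, for asparagine, lay between 0.116% and 3.68% (median 0.772%), and mt-Tp, for proline, between 0.166% and 2.56% (median 0.344%). The 3 scarce members were mt-Tq, for glutamine, at 0.0732% to 0.481% (median 0.175%), mt-Ts1, for serine, at 0.0314% to 1.06% (median 0.0568%), and mt-Ta, for alanine, at 0.0215% to 0.321% (median 0.0497%). The top values of mt-Tc, mt-Tp, mt-Tq, mt-Ts1 and mt-Ta and the lowest of mt-Tn and mt-Ty came from the 2 libraries under 10000 mt-tRNA reads. Without these, the upper ends were 4.70% for mt-Tc, 0.618% for mt-Tp, 0.232% for mt-Tq, 0.228% for mt-Ts1 and 0.0913% for mt-Ta, and the lower ends 0.365% for mt-Tn and 0.485% for mt-Ty. Highest over lowest then went from 31.6-fold to 10.1-fold for mt-Tn and from 33.9-fold to 7.24-fold for mt-Ts1, and the range of mt-Te was not affected. Mouse 4, with the next fewest mt-tRNA reads, gave the remaining upper ends of mt-Tp and mt-Ts1 and the lowest values of mt-Ta and mt-Te.

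The first comparison asked whether the light-strand share differs between genotypes under the control virus. In WT shCT mice the 8 tRNAs made up 8.68% of mt-tRNA reads in mouse 3, 11.7% in mouse 5, 13.3% in mouse 6, 7.79% in mouse 11 and 9.56% in mouse 15. In 5xFAD shCT mice they made up 8.78% in mouse 1, 7.36% in mouse 16 and 13.0% in mouse 18. The ranges lay over each other. The means were 10.2% ± 2.25 (SD, n = 5) and 9.72% ± 2.94 (SD, n = 3), a difference of -0.486 percentage points (exact two-sided permutation p = 0.732, adjusted over the 4 comparisons 0.732), which was smaller than the spread between mice. The sign was not stable, since without mouse 6 of WT shCT the difference was 0.284 and without mouse 16 of 5xFAD shCT 0.695.

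For RTP801 silencing in 5xFAD mice, the light-strand share was 12.4% ± 3.07 (SD, n = 6) with shRTP801, from 9.14% in mouse 2 over a median of 11.9% to 16.8% in mouse 8. The difference from 5xFAD shCT was 2.69 percentage points (exact two-sided permutation p = 0.25, adjusted 0.5). The highest values, in mice 7 and 8, lay above every control, and the lowest 4 within their range. In WT mice, silencing went with 5.68% in mouse 4, 8.03% in mouse 10, 9.63% in mouse 17 and 12.1% in mouse 21, with a mean of 8.86% ± 2.71 (SD, n = 4) and a difference from WT shCT of -1.34 percentage points (exact two-sided permutation p = 0.460, adjusted 0.614). Between genotypes under shRTP801, 5xFAD lay 3.54 percentage points above WT (exact two-sided permutation p = 0.119, adjusted 0.476), again with overlapping groups. None of the 4 differences passed the test, and the smallest p the group sizes allow was 0.0179, 0.0119, 0.00794 and 0.00476 in the order given. The 4 comparisons share groups and are not independent.

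The 5xFAD and WT responses to silencing, of opposite sign, were also set against each other. Their difference was 4.03 percentage points (exact permutation of the treatment within genotype, p = 0.145). Within the lower and upper mouse numbers, the 4 differences were -0.184, 2.46, -1.38 and 3.54 percentage points (exact permutation p = 0.917, 0.35, 0.45 and 0.16). With the libraries of at least 10000 mt-tRNA reads alone, they were -0.111, 2.12, -0.963 and 2.97 (exact permutation p = 0.914, 0.429, 0.629 and 0.183), so none changed its sign or passed the test. Leaving out 1 mouse, the difference for silencing in 5xFAD mice ran from 1.51 (without mouse 16) to 4.34 (without mouse 18), for silencing in WT mice from -2.42 (without mouse 21) to -0.276 (without mouse 4), and between genotypes under shRTP801 from 2.48 to 4.62. Without mt-Th and mt-Te, the most abundant tRNA of each strand, the 4 differences were -3.04, 4.31, -5.05 and 6.32 percentage points (exact permutation p = 0.429, 0.310, 0.119 and 0.0619). The difference of the responses was 9.36 (exact permutation p = 0.0597). These are points of a smaller total, since mt-Th alone held a median of 54.6% of mt-tRNA reads, so their size is not comparable with those above. With every gene weighted alike, as mean log2 share of the light minus the heavy strand, the 4 differences were -0.311, 0.181, -0.336 and 0.206. Their exact permutation p-values were 0.929, 0.571, 0.944 and 0.467.

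**Figure D4:**
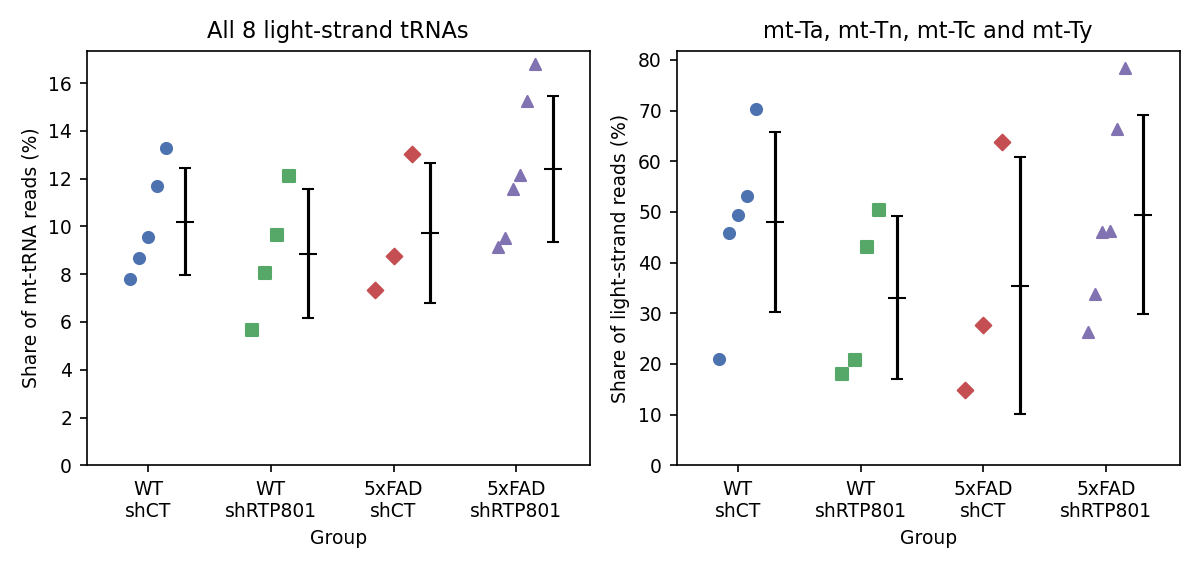
Left, share of the 8 light-strand tRNAs in the mt-tRNA reads of each mouse (%) by group; right, share of mt-Ta, mt-Tn, mt-Tc and mt-Ty in the light-strand reads (%); points are mice, and the bar beside them the mean ± SD. The 4 groups overlap in both panels, with means of 8.86% to 12.4% on the left and 33.0% to 49.5% on the right.

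The block of mt-Ty, mt-Tc, mt-Tn and mt-Ta made up 47.9% ± 17.8 (SD, n = 5) of the light-strand reads in WT shCT, 33.0% ± 16.1 (n = 4) in WT shRTP801, 35.5% ± 25.4 (n = 3) in 5xFAD shCT and 49.5% ± 19.6 (n = 6) in 5xFAD shRTP801 mice. The differences between these means were below or near the SD within the groups, and the largest, 16.4, lay between the SDs of its 2 groups. The differences were -12.5 percentage points for 5xFAD shCT minus WT shCT (exact permutation p = 0.429, adjusted 0.429), 14.01 for 5xFAD shRTP801 minus 5xFAD shCT (p = 0.369, adjusted 0.429), -14.9 for WT shRTP801 minus WT shCT (p = 0.183, adjusted 0.419) and 16.4 for 5xFAD shRTP801 minus WT shRTP801 (p = 0.210, adjusted 0.419). The difference of the 2 responses to silencing was 28.9 percentage points (exact permutation p = 0.134). None passed the test. Within the lower and upper mouse numbers, the first of these differences was -4.29 percentage points (exact permutation p = 0.708), less than the -12.5 over all mice, and the other 3 were 11.1, -12.3 and 16.4 (exact permutation p = 0.5, 0.15 and 0.21). Single mice of 5xFAD shCT weighed heavily, since the first difference was -26.7 without mouse 1 and -2.18 without mouse 18, and the second 28.2 and 3.71 without the same mice. The differences between WT groups and between shRTP801 groups ran from -21.6 to -9.30 and from 10.6 to 22.2 with 1 mouse left out.

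Each of the 22 mt-tRNAs was then compared as a share of mt-tRNA reads with limma on log2(% + 0.01), with all 4 groups in 1 fit. With Benjamini-Hochberg adjustment over the 22, no mt-tRNA passed 0.05 in any comparison (0% called), and none of the 8 light-strand members did. In reads simulated with the common dispersion of these data, the fit recovered 20.5% of log2 rises of 2 in 5xFAD shCT minus WT shCT. The rises were placed in the less abundant mt-tRNAs, so the rate does not cover mt-Te. Before adjustment, 1 of 22 (4.55%) had a p under 0.05 in each comparison, and this was a light-strand tRNA, mt-Tc, only in 5xFAD shRTP801 minus WT shRTP801. The same counts from edgeR on recovered reads were 2, 1, 0 and 1 with the mt-tRNA total as the library size and from DESeq2 2, 1, 0 and 1, none past adjustment. With TMM scaling, edgeR gave 3, 2, 1 and 1, and 1 passed adjustment in each of the first pair of comparisons, the heavy-strand mt-Th in both. The members' fitted changes above 0 numbered 2, 7, 1 and 7 of 8 in the 4 comparisons, in the order given above, beside 40.9%, 77.3%, 40.9% and 81.8% of all 22. Their median log2 changes were -0.58, 0.57, -0.46 and 0.58, against -0.07, 0.28, -0.13 and 0.32 over the 22. No member had groups that did not overlap, against 0%, 4.55%, 0% and 0% of the 22.

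mt-Tc, whose product decodes cysteine codons, showed the smallest p-values among the members. In WT shCT mice it was 2.34% of mt-tRNA reads in mouse 3, 4.17% in mouse 5, 4.37% in mouse 6, 1.61% in mouse 11 and 0.893% in mouse 15. In WT shRTP801 mice it was 1.75% in mouse 4, 1.58% in mouse 10, 0.708% in mouse 17 and 0.973% in mouse 21. The WT groups overlapped, with the controls spread over a wider range. In 5xFAD shCT mice it was 2.39% in mouse 1, 0.846% in mouse 16 and 0.846% in mouse 18, and in 5xFAD shRTP801 mice it ran from 1.33% over a median of 3.17% to 6.39%, where the highest value is that of mouse 7 (384 of 6013 reads) and the next that of mouse 8 (4.70%). Mice 15 to 21 held the 6 lowest values. The log2 change of 5xFAD shRTP801 over WT shRTP801 was 1.27 ± 0.55 (SE) with a limma p of 0.0338, adjusted 0.743, and over 5xFAD shCT 1.25 ± 0.61 with a limma p of 0.0542, adjusted 0.596. For 5xFAD shCT over WT shCT it was -0.92 ± 0.63 (limma adjusted p = 0.823) and for WT shRTP801 over WT shCT -0.95 ± 0.57 (limma adjusted p = 0.808). The difference between the 2 responses to silencing was 3.45 percentage points of mt-tRNA reads (exact permutation p = 0.0332, adjusted over the 22 mt-tRNAs 0.365). With the adjustment, none of these values of mt-Tc passed 0.05. The size of the mt-Tc changes varied with the scaling. Centred on the median of the 22 mt-tRNAs, the 4 log2 changes, in the order of the comparisons, were -0.29, 0.46, -0.51 and 0.69, with edgeR and TMM -0.36, 0.81, -0.85 and 1.30, and with the mt-tRNA share of tRNA reads as a covariate -0.48, 0.90, -0.70 and 1.13. With the lower and upper mouse numbers as a block in limma they were -0.63, 1.07, -0.84 and 1.27, and no adjusted p of mt-Tc in these fits was under 0.05. In the limma fits with that covariate or that block, none of the 22 mt-tRNAs passed adjustment.

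For the other members, the log2 changes of 5xFAD shCT over WT shCT ran from -0.80 ± 0.79 (mt-Tn) to 0.53 ± 0.57 (SE, mt-Te), all with a limma adjusted p of 0.823 or above. After silencing in 5xFAD mice, they ran from -0.14 ± 0.55 (mt-Te) to 0.90 ± 0.99 (mt-Ts1), where the mt-Ts1 value of 1.06% came from mouse 7, with 64 reads. In WT mice they lay between -0.74 ± 0.73 (mt-Tn) and 0.38 ± 0.52 (mt-Te). Under shRTP801, they lay between -0.17 ± 0.64 (mt-Tp) and 0.80 ± 0.63 (mt-Ty) for 5xFAD over WT. The SE of every member was above 0.45 on the log2 scale.

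As levels on the deposited normalised scale, the 8 members were compared within the 1919 entries with a mean of at least 10. All 8 passed this filter. limma on log2(normalised reads + 1) found no entry past an adjusted p of 0.05 in any comparison (0% called). In simulated reads as dispersed as these data, the fit recovered 0% of log2 changes of 2 in 5xFAD shCT minus WT shCT. Before adjustment, 40 (2.08%), 17 (0.886%), 17 (0.886%) and 1 (0.0521%) of the 1919 had a p under 0.05, with no member among them, and edgeR gave 32, 55, 73 and 52 and DESeq2 147, 96, 79 and 63 such entries, none past adjustment. On this scale the whole table differed between groups, with median log2 changes of 1.60, -1.19, 0.65 and -0.23, and the members' medians were 2.53, -2.07, 1.23 and -0.68. All 8 members lay above 0 in 5xFAD shCT minus WT shCT (71.8% of all entries) and in WT shRTP801 minus WT shCT (70.6%). All 8 lay below 0 in the other comparisons, where 30.3% and 35.5% of all entries lay above 0. Relative to the table, the members' medians were thus displaced in the direction in which the table itself moved, and the lowest adjusted p of a member was 0.492. The 14 heavy-strand tRNAs had the same signs, from 0.89 to 3.94, -3.31 to -1.18, 0.57 to 2.16 and -1.55 to -0.33. The displacement was thus not particular to the light strand. It leans on libraries low in mt-tRNA, with mt-Tc at 55.6 normalised reads in mouse 5, 2334 in mouse 4 and 726 in mouse 7. By group medians, mt-Tc was 103313 in WT shCT, 81875 in 5xFAD shCT and 78679 in WT shRTP801. mt-Tn was at 55163, 45673 and 47014. These 2 medians were thus lower where the fitted changes lay above 0, while those of the other members were higher.

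Across the 18 mice, 5 of the 8 members (62.5%) had a share closest to that of a heavy-strand tRNA, where 14 of the 21 possible partners of a member (66.7%) are of the heavy strand. mt-Tc was closest to mt-Tt, the threonine tRNA (rho = 0.876, permutation p adjusted over 231 pairs 0.00116; r = 0.759, adjusted p = 0.00878, and 0.845 without the 2 farthest mice). mt-Ts1 was closest to mt-Tl1, a leucine tRNA (rho = 0.849, adjusted permutation p = 0.00231; r = 0.995, adjusted p = 0.00116, and 0.910 without the 2 farthest mice). mt-Tp was also closest to mt-Tl1 (rho = 0.804, adjusted permutation p = 0.00359; r = 0.869, adjusted p = 0.0249, and 0.754 without the 2 farthest mice). mt-Ty was closest to mt-Tw, the tryptophan tRNA beside the block (rho = 0.802, adjusted permutation p = 0.00289; r = 0.888, adjusted p = 0.00154, and 0.732 without the 2 farthest mice). mt-Te was closest to mt-Tf, the phenylalanine tRNA (rho = 0.721, adjusted permutation p = 0.0113; r = 0.720, adjusted p = 0.010, and 0.790 without the 2 farthest mice). Within the light strand, mt-Tn was closest to mt-Ty (rho = 0.732, adjusted permutation p = 0.0113; r = 0.923, adjusted p = 0.00462, and 0.647 without the 2 farthest mice). mt-Tq and mt-Ta were closest to each other (rho = 0.501, adjusted permutation p = 0.133; r = 0.818, adjusted p = 0.0108), a relation that rests on the low libraries, with r = 0.444 without the 2 farthest mice. The partners changed in the 16 libraries of at least 10000 mt-tRNA reads, where 4 of 8 members had one on the heavy strand. There, mt-Tn (rho = 0.865), mt-Ty (rho = 0.859) and mt-Ts1 (rho = 0.794) were closest to mt-Tc, and mt-Ta to mt-Te (rho = 0.75). mt-Tq moved to the heavy-strand mt-Tk (rho = 0.785), with rho = 0.315 to mt-Ta. mt-Tc remained closest to mt-Tt (rho = 0.921), mt-Te to mt-Tf (rho = 0.776) and mt-Tp to mt-Tl1 (rho = 0.724). The unadjusted permutation p of rho ran from 1e-05 (mt-Tc with mt-Tt) to 0.0358 (mt-Tq with mt-Ta). All these shares are parts of 1 total and of the same libraries, so they are not free of each other.

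The deposited level of the 8 tRNAs together was closest, among the 1897 other entries tested, to that of Snord55, a box C/D snoRNA (rho = 0.994 over 18 mice), Gm25296 (rho = 0.992) and Snord70, a box C/D snoRNA (rho = 0.990). Snord55 ran from 4.28 to 17930 normalised reads. The libraries that were low in light-strand tRNAs were thus also low in these small RNAs on the deposited scale, on which every entry of a library shares a size factor.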

How the data were processed

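The authors prepared Hydro-tRNA-seq libraries of 18 mouse hippocampi, counted paired-end reads of 50 bases with tRAX and divided the counts of a library by a size factor, and the deposited values are this normalised signal. Per the submitters' processing notes the build was mm39. The aligner, tRAX version and use of strand in counting are not given in the sources used here, and nor is the treatment of nuclear copies of mitochondrial genes. The ends of mt-Tq and mt-Ti, and of mt-Ts1 and COX1, overlap on opposite strands, so a few bases could be counted for either gene.

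Every value was a whole multiple of the smallest non-zero value of its column, within 1e-06 reads, and reads were recovered by that division. Shares are percentages of the reads of the 22 mt-T rows, or of the 8 members, and do not depend on the size factor. Gene order and lengths came from RefSeq (GRCm38.p6), in which all 22 were found by name, and no coordinates were used. No pair of libraries agreed within sampling noise, and no label says that mice shared a litter or batch. Group means were compared by exact two-sided permutation, and the 22 rows, or the 1919 rows with a mean of at least 10, with limma 3.58.1 in R 4.3.3 (pseudocounts 0.01% and 1, threshold 0.05). Correlations used 100000 permutations. Intervals are Wilson's at 95%. edgeR 4.0.16 and DESeq2 1.42.0 were run on recovered reads as alternatives. Python 3.11.15 with numpy 2.4.6, pandas 2.3.3, scipy 1.17.1 and matplotlib 3.10.9 was used. Simulated reads with log2 changes of 2 in 5xFAD shCT against WT shCT were used to test the limma scripts. For mt-tRNA shares, the changes were rises in the less abundant mt-tRNAs, mt-Te not among them. Rows varied independently with 1 common dispersion (spread of counts), unlike the differences between whole libraries seen here. At a dispersion of 0.1, 95% of the changes were recovered. At 0.389, the dispersion of these data, 20.5% were recovered. For levels over the whole table, 100% were recovered at 0.1 and 0% at 1.25, the dispersion of these data. An absence of calls thus does not show that groups are alike. The members and lists were chosen with earlier results of these data known. All 8 members are named, and of the heavy-strand tRNAs the most and least abundant, those past the threshold and those most like a member by Spearman's rho. The 3 rows outside the mt-T rows most like the light-strand sum are named too. The split by mouse number was chosen after seeing the data.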

Additional observations from a re-analysis of the deposited data

Results flagged for a closer look

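In 33 groups of values, each with 4 to 6 mice, the lowest or highest mouse was compared with the others by Dixon's test at the 95% level, and 9 stood apart. Chance alone flags about 1 in 20 such groups. The share of mt-tRNAs in mt-tRNA plus mature tRNA reads was 0.442% in mouse 4, far below the other WT shRTP801 mice. In mouse 5, the WT shCT library with 624 mt-tRNA reads, the shares of mt-Tq (0.481%), mt-Ta (0.321%), mt-Ts1 (0.962%) and mt-Tp (2.56%) stood above those of its group. These rested on 3, 2, 6 and 16 reads. In mouse 7, the 5xFAD shRTP801 library with 6013 mt-tRNA reads, mt-Ts1 (1.06%, 64 reads) and mt-Tp (1.21%, 73 reads) stood above the group.

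The other 2 concerned mt-Ty, the tyrosine tRNA of the block, in deep libraries. mt-Ty was 2.79% of mt-tRNA reads in mouse 6 (WT shCT) from 84349 reads, and 4.75% in mouse 8 (5xFAD shRTP801) from 73928 reads. The same 2 mice had the highest block shares of light-strand reads, 70.4% and 78.4%.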

How the results depend on the processing

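The number of mt-tRNA reads limits mice 5 and 7, where single members rest on 2 to 384 reads, and the SD between mice limits the rest. Of the alternative settings run, 126 values were counted as the same and 2 as moved. For differences in share and the interaction, the same means an unchanged direction and side of the threshold. For the fits over all rows, it means only that the number past adjustment stayed at 0. For the mean share of a member, it means a move of less than the SD between mice. The 2 that moved were numbers past adjustment. edgeR with TMM called 1 of the 22 mt-tRNAs in 5xFAD shCT minus WT shCT and 1 in 5xFAD shRTP801 minus 5xFAD shCT, with an adjusted p under 0.05, where limma called 0. In both it was mt-Th, of the heavy strand, and the cause was not tested. Leaving out each mouse in turn left 160 values the same by these rules and reversed 2. The light-strand share of 5xFAD shCT minus WT shCT then ran from -2.13 to 0.695 percentage points, and the 2 reversals were the values without mouse 6 (0.284) and without mouse 16 (0.695). The interaction on the light-strand share ran from 2.85 to 5.67 with a mouse left out, and no exact p was under 0.05. No paired analysis was possible because every mouse has its own number, so the groups compared share none.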
